A study of Homo sapiens with 40 samples.

Results

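Broad H3K4me3 domains are stretches of chromatin over which trimethylation of histone H3 lysine 4, a mark of active promoters, runs on for many nucleosomes in place of a short promoter peak. They were taken as the H3K4me3 peaks of at least 8000 bp in the control (CT) or the SETDB1 knockout (KO) peak list, with overlapping peaks merged. This gave 934 domains out of 76737 merged H3K4me3 regions (1.22%). Together the domains spanned 11.2 Mb, and their median width was 10098.5 bp (8001 to 60606 bp). The cells were A549, an established human lung adenocarcinoma line that carries K-RAS G12S per the labels and was grown in DMEM with serum. Control cells were compared with A549 cells in which SETDB1, a histone H3 lysine 9 methyltransferase, had been disrupted with CRISPR/Cas9 and a guide RNA delivered from the PX458 plasmid. Whether the KO cells were a clone or a pool, and what the control cells had received, is not given in the sources used here. ChIP-seq had 2 libraries per genotype for each of H3K4me3, H3K27ac, H3K27me3, H3K9me3 and CTCF, Hi-C had 2 per genotype and RNA-seq had 3. Each mark came as 1 peak list per genotype, so widths and overlaps have no replicate error and no test. Their 95% Wilson intervals cover counting error only.

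H3K4me3 is written by the SETD1A, SETD1B and KMT2 methyltransferases, which work with the shared subunits WDR5, RBBP5, ASH2L and DPY30, and it is removed by KDM5 demethylases. Broad H3K4me3 domains are known from many cell types as a feature of genes that define the cell and of strongly transcribed promoters, where H3K27 acetylation by EP300 and CREBBP usually lies over the same nucleosomes. H3K27me3, written by the Polycomb complex PRC2, and H3K9me3, written by SETDB1 among others, mark repressed chromatin, and SETDB1 acts together with KRAB zinc finger proteins, whose genes are clustered on chromosome 19.

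SETDB1 RNA was lower in KO but still present. It was measured at 37.5, 39.6 and 38.7 CPM (counts scaled to library size) in the control libraries and at 23.4, 21.2 and 21.1 CPM in those of the KO, with no overlap. This gave a log2 fold change of -0.82 (SE 0.060), with 1.7e-12 as edgeR's adjusted p. The 6 epithelial markers (EPCAM, KRT7, KRT8, KRT18, KRT19 and CDH1) were detected in every library, with summed levels of 4460 to 4890 CPM in control and 10800 to 11600 CPM in KO. Of the 8 markers of immune, endothelial and fibroblast cells, 7 were matched, and their summed level was 3.37 to 3.54 CPM in control and 8.03 to 9.0 CPM in KO. CD3E, COL1A2 and DCN had 0 counts in all 6 libraries, and the endothelial gene CDH5 went from a mean of 0.289 to 4.53 CPM. The fibroblast gene COL1A1 made up most of the control sum. It had 3.19, 3.04 and 3.09 CPM in control and 4.1, 3.83 and 3.56 CPM in KO. The part of these levels in the results on domains was not tested.

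Broad peaks were a small fraction of each list and their median widths were within 100 bp of each other. The control list held 705 broad peaks among 56854 (1.24%, interval 1.15 to 1.33), and the KO list 765 among 69459 (1.1%, interval 1.03 to 1.18). The median peak of all widths measured 1153 bp in control and 1077 bp in KO, and the 99th percentile lay at 8606 and 8280 bp. Among broad peaks, which the rule chose by width, the median was 10140 bp in control and 10064 bp in KO, with quartiles of 8883 and 12816 bp against 8886 and 12812 bp. The control list had 363 peaks of at least 10 kb and the KO list 385. At least 20 kb was reached by 45 peaks in each list, and at least 30 kb by 13 and 14. Broad peaks held 8.4% of the H3K4me3 length of 99.6 Mb in control and 7.94% of 114 Mb in KO. The threshold cut a continuous distribution: the narrowest broad peaks measured 8001, 8002 and 8002 bp in control and 8001, 8012 and 8013 bp in KO, and the widest peaks left out measured 7989, 7986 and 7980 bp in control and 7994, 7992 and 7992 bp in KO.

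More domains were broad in both genotypes than in either alone. Of the 934 domains, 526 (56.3%) held a broad peak in both lists, 174 (18.6%) in control only and 234 (25.1%) in KO only. With the 705 widest peaks of each list, for which the KO threshold was 8245 bp, 190 domains were broad in control only and 191 in KO only. Within the 526 shared domains the median log2 ratio of the widest KO peak to the widest control peak was 0.009 (quartiles -0.051 and 0.087), with 289 wider in KO and 237 wider in control. The widths were within 10% of each other in 363 of the 526 (69.0%), and across these domains the Pearson r of the log2 widths was 0.834, a description over 526 domains that share 2 lists. A ratio of at least 1.5 was seen in 18 domains wider in KO and 20 wider in control. In the 395 shared domains with 1 peak in each genotype, the median shift of an end was 164 bp. Of their 790 ends, 640 (81.0%) moved by less than 500 bp and 10 (1.27%) by 2000 bp or more.

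**Figure D1:**
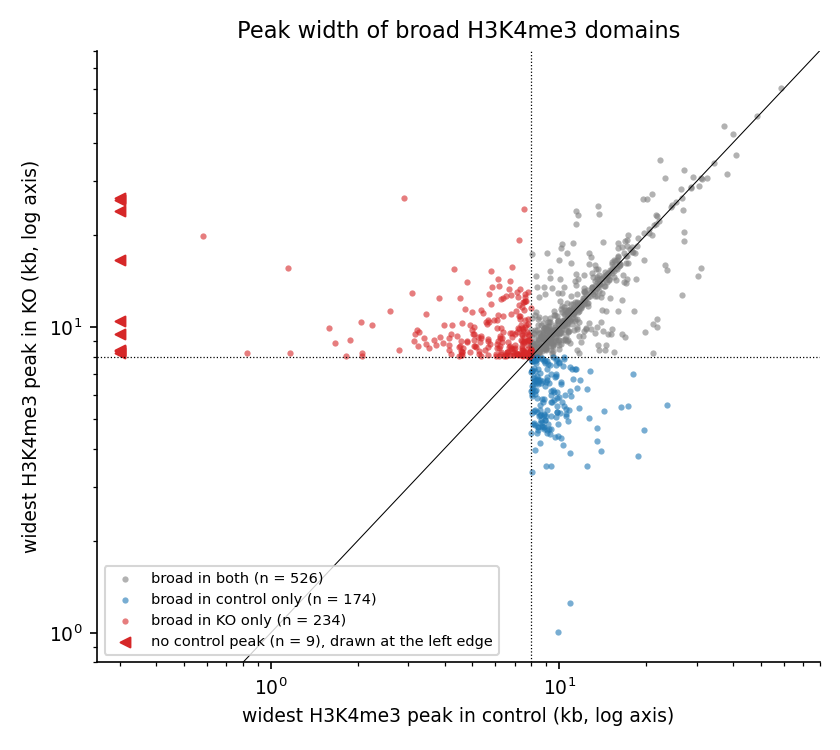
Width of the widest H3K4me3 peak in each of the 934 domains in control (x axis, kb, log scale) and KO (y axis, kb, log scale), with dotted lines at the 8 kb threshold and a solid line of equal width. Shared domains (grey, 526) gather on the line, with a median log2 ratio of 0.009. Many domains broad in only 1 genotype lie close to the threshold, and the 9 without a control peak are drawn as triangles at the left edge.

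Ranked by their widest single peak, the leading domains were broad in both genotypes. The first, chr9:75510765-75571370 (hg19), had a peak of 58855 bp in control and 60606 bp in KO, and H3K27ac covered 99.54% and 99.99% of it. It was followed by a domain on chromosome 8 with 48373 bp in control and 48807 bp in KO. The domain at chr4:139128910-139181322 had 37205 bp in control and 45408 bp in KO, that at chr9:97761568-97804387 had 39890 and 42820 bp, and that at chr10:33211802-33253018 had 41053 and 36397 bp. The 10 domains with the widest peaks were all broad in both lists, and no H3K27me3 peak touched any of them in either genotype. Their widths did not all keep within 10%. The peak at chr5:58832365-58869798 measured 22337 bp in control and 35256 bp in KO, although 2 peaks in each genotype covered nearly the same length, 36998 and 37148 bp. That domain carried H3K9me3 over 39.49% of its length in control and over 0% in KO. The share broad in both genotypes was lower for narrower domains. Of control domains of 8 to 10 kb, 61.3% were also broad in KO, against 85.8% at 10 to 15 kb, 91.8% at 15 to 20 kb and 97.8% (44 of 45) at 20 kb or more. The KO domains gave 57.1%, 77.4%, 90.1% and 88.9% (40 of 45). A domain near the threshold can lose its call through a small change of width, so the low shares of the narrowest class are partly by construction.

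Domains broad in control only were seldom bare in KO. Each of the 174 had at least 1 KO peak. Their widest control peak had a median of 9002 bp, and the widest KO peak a median of 6023 bp (quartiles 5045.25 and 7036.75 bp, range 1005 to 7992 bp). In KO the H3K4me3 peaks still covered a median of 85.4% of these domains. In 81 of the 174, 2 or more KO peaks covered at least 80% of the domain, so that the stretch was divided and the median length left without a peak was 736 bp. Under 50% of the length was covered in 8 of them.

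Domains broad in KO only were also mostly covered in control, though more of them had low coverage. Control H3K4me3 peaks covered a median of 82.1% of their length, and at least 80% in 129 of the 234. Of the 234, 9 had no control peak, and 35 had under 50% of their length covered there. The median width of the widest peak was 9065.5 bp in KO and 6292 bp in control (quartiles 4610.5 and 7413 bp, range 0 to 7980 bp). A control peak of at least 7000 bp was present in 85 (36.3%), against 45 (25.9%) of the control-only domains that had such a KO peak. Here 82 domains were divided, being covered to at least 80% by 2 or more control peaks, with a median of 991.5 bp left without a peak. Counted by covered length instead of a single peak, 61 of the control-only and 68 of the KO-only domains had at least 8000 bp of H3K4me3 in the other genotype as well.

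The domains without any control H3K4me3 peak lay mostly on chromosome 19. The widest was chr19:23552649-23579079, with a KO peak of 26431 bp, H3K27ac over 0% in control and 97.9% in KO, and H3K9me3 over 100% in control and 0% in KO. Near it, chr19:23728583-23754553 had a KO peak of 25971 bp, H3K27ac over 0% and 98.26%, and H3K9me3 over 88.48% and 0%. The domain at chr19:53435537-53452068 had 16532 bp of KO H3K4me3, with H3K27ac at 0% and 91.84% and H3K9me3 at 100% and 0%. A further 3 on this chromosome, chr19:20276862-20286324, chr19:23518569-23526885 and chr19:23414790-23423001, had KO peaks of 9463, 8317 and 8212 bp, control H3K9me3 over 92.75%, 87.12% and 100% of their length, and KO H3K27ac over 56.69%, 89.46% and 25.56%. In these 6 of the 9, H3K9me3 covered at least 87.12% in control and none in KO, while KO H3K27ac ranged from 25.56% to 98.26%. On the X chromosome, chrX:93833846-93857722 (23877 bp) had no control H3K9me3, H3K9me3 over 12.9% in KO, and H3K27ac at 0% and 97.17%. At chr5:178252459-178262889 (10431 bp) H3K27me3 covered 39.83% in control and 17.03% in KO, beside H3K9me3 at 100% and 0% and H3K27ac at 0% and 31.84%. At chr18:70997448-71005854 (8407 bp) no H3K9me3 peak lay in either genotype, and H3K27ac covered 0% and 65.48%.

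Large differences were also found where the control had some H3K4me3. At chr15:34429297-34455702, 2 control peaks covered 5381 bp and 1 KO peak 26406 bp, with H3K27ac over 18.28% and 100% and H3K9me3 over 46.94% and 7.54%. At chr3:110671556-110691415, H3K4me3 covered 581 bp in control and 19860 bp in KO, H3K27ac 0% and 77.97%, and H3K9me3 47.2% and 0%. The opposite direction was led by chr2:234740674-234764395, where 1 control peak of 23722 bp stood against 3 KO peaks that covered 7194 bp, while H3K27ac covered 98.94% and 78.44%. At chr6:127435318-127454949, H3K4me3 covered 19632 bp in control and 4607 bp in KO, and H3K27ac covered 84.58% in control and none in KO. At chr9:118913656-118931671 the values were 18016 and 7701 bp, with H3K27ac over 77.83% and 36.32%, and at chr10:6252922-6266824 they were 13903 and 4798 bp, with H3K27ac over 98.73% and 88.01%. H3K27ac thus followed H3K4me3 down closely in some of these domains and hardly in others. An exception in direction was chr19:36714610-36724499, broad in control only (9890 and 1005 bp), where H3K27ac covered 0% in control and 51.35% in KO and H3K9me3 100% and 0%.

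Some domains lay close to each other. Another domain lay within 10 kb of 102 of them (10.9%) and within 100 kb of 258 (27.6%), and the median gap to the nearest was 488.5 kb. The spacing of narrow peaks was not measured for comparison. Joining domains no more than 100 kb apart gave 109 clusters of at least 2, of which 31 held shared domains only, 9 control-only domains only and 8 KO-only domains only. The largest, chr5:58279518-58658352, held 7 domains over 378.8 kb, and H3K4me3 covered 115744 bp of them in control and 111466 bp in KO. Clusters of 5 domains lay at chr9:75510765-75783095 and chr17:57694529-57975809. At chr7:11765089-11874075 all 4 domains were broad in KO only, yet the control peaks, divided into pieces, covered 31532 of the 41472 bp covered in KO. At chr19:23414790-23579079 all 3 domains were broad in KO only and H3K4me3 covered 0 bp in control and 42960 bp in KO. The 3 domains at chr7:95023490-95066992 were all broad in control only, with 29461 and 21417 bp covered. Chromosome 17 had the densest domains by length, 6.65 per 10 Mb, followed by chromosome 19 with 5.92, and chromosome 13 the sparsest, with 1.13. As a share of the chromosome's H3K4me3 peaks the order differed. On chromosome 19, 0.96% of peaks were broad in control and 1.02% in KO, below the 1.24% and 1.1% of the whole lists. Chromosome 17 had 1.59% and 1.6%, and chromosome 13 had 0.767% and 0.684%. The balance of control-only and KO-only domains differed between chromosomes, with 4 and 19 on chromosome 12, 3 and 13 on chromosome 15, 5 and 16 on chromosome 9, 6 and 14 on chromosome 19, 13 and 6 on chromosome 11, and 19 and 9 on chromosome 2. The median RNA log2 fold change of the tested genes was 0.37 on chromosome 12, -0.04 on chromosome 15, 0.021 on chromosome 9, 0.34 on chromosome 19, 0.028 on chromosome 11 and -0.54 on chromosome 2. Over 23 chromosomes the KO-only share of domains broad in 1 genotype and this median had a Pearson r of 0.388 and a Spearman rho of 0.057, a description only. The balance of all H3K4me3 peaks also differed between chromosomes. Its log2 ratio of KO to control peak counts and the KO-only share had a Pearson r of 0.42 over the 23 chromosomes. Whether DNA copy number differs between the cells was not tested.

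H3K27ac, the acetyl mark of active promoters and enhancers, lay over nearly all domains. A peak touched 917 of 934 in control (98.2%, interval 97.1 to 98.9) and 931 in KO (99.7%, 99.1 to 99.9), and peaks covered at least 50% of the length in 81.2% and 89.1%. Because a wide region is touched more easily, the midpoint gives the fairer comparison with narrow peaks. The midpoint of the domain lay in an H3K27ac peak in 77.9% of domains in control and 82.4% in KO, against 57.4% and 56.8% of H3K4me3 peaks under 8000 bp. The set holds more domains chosen through the KO list alone, which bears on its genotype difference. For the broad peaks of each genotype's own list the midpoint shares were 86.4% in control and 83.9% in KO, the other direction, and the shares of length were 83.8% and 84.5%. By length, H3K27ac covered 76.4% and 82.2% of the domains and 60.7% and 61.5% of the narrow peaks. Coverage was higher in wider domains: the mean in control was 75.9% at 8 to 10 kb, 82.3% at 10 to 15 kb, 87.5% at 15 to 20 kb and 93.3% at 20 kb or more. In KO the means were 76.8%, 84.0%, 89.1% and 95.8%. The whole H3K27ac list covered 109 Mb in control and 120 Mb in KO.

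Within the classes, which were chosen by breadth, H3K27ac differed between genotypes in the same direction as H3K4me3. In the shared domains its coverage was 83.3% (control) and 86.3% (KO). In control-only domains it covered 78.3% and 72.9%, and in KO-only domains 53.9% and 76.5%. Across the 934 domains the KO minus control difference in the percent covered by H3K27ac and that by H3K4me3 had a Pearson r of 0.686 and a Spearman rho of 0.507, given as a description because the domains share the same 4 lists. In control 17 domains were without H3K27ac, and 3 in KO. A control H3K27ac peak touched 218 of the 234 KO-only domains, which entered the set through the KO list alone. Among the broad peaks of each genotype's own list, 704 of 705 in control and 764 of 765 in KO were touched. Besides the chromosome 6 domain above, the domain at chr2:143644713-143655583 had H3K27ac over 75.33% in control and none in KO, while its H3K4me3 covered 10871 and 2053 bp. Shared domains could also differ: at chr5:175291318-175305543 H3K27ac covered 97.83% in control and 26.7% in KO, with H3K4me3 peaks of 14226 and 9705 bp. At chr12:69200620-69211067 it covered 40.6% and 92.14%, with peaks of nearly equal width, 10262 and 10448 bp.

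**Figure D2:**
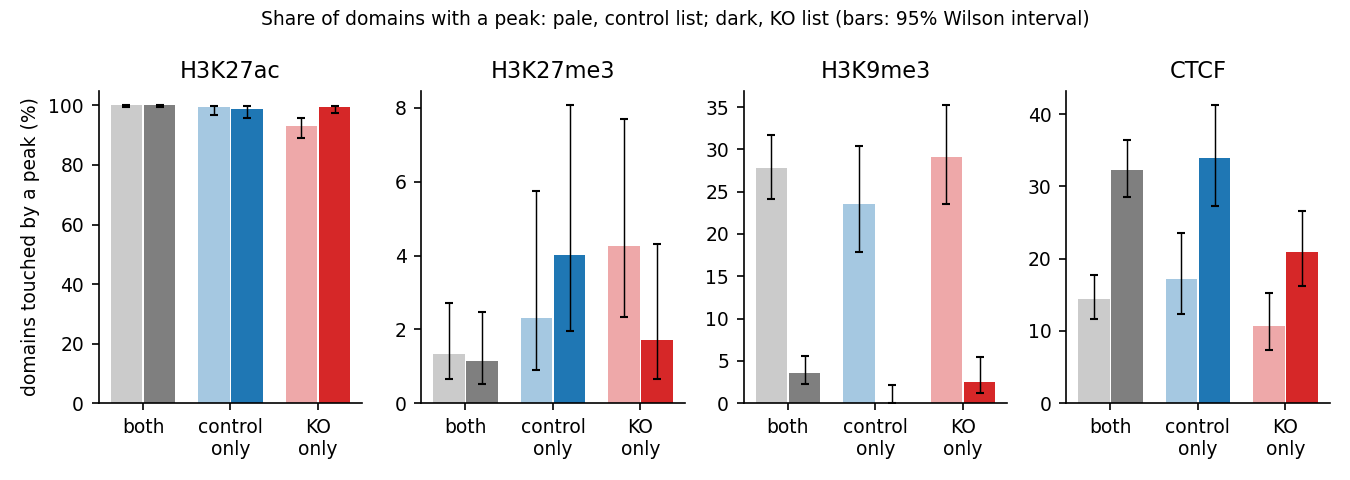
Percent of domains touched by a peak of H3K27ac, H3K27me3, H3K9me3 or CTCF, by where the domain is broad (both, 526; control only, 174; KO only, 234), in the control list (pale bars) and the KO list (dark bars). Error bars are 95% Wilson intervals for counting error, and the y axes differ between marks. H3K27ac is near 100% throughout, while H3K9me3 touches 27.3% of all domains in control and 2.68% in KO.

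H3K27me3 was rare in the domains. It touched 21 of 934 in control (2.25%, interval 1.48 to 3.41) and 17 in KO (1.82%, 1.14 to 2.9), 11 of them in both. The domain midpoint lay in H3K27me3 in 0.642% in each genotype, against 3.42% and 4.05% of the narrow H3K4me3 peaks. By length it covered 0.499% and 0.227% of the domains against 2.32% and 2.92% of narrow peaks, while the whole list covered 371 Mb in control and 284 Mb in KO. The domains with most H3K27me3 were broad in only 1 genotype. It covered at least 50% of 4 domains in control and of none in KO, and all 4 were broad in KO only. These 4 entered the set through the KO list alone, which bears on this count. Among the broad peaks of each genotype's own list, H3K27me3 covered at least 50% of 0 of 705 in control and 0 of 765 in KO. At chr6:85591279-85599470 H3K27me3 covered 94.19% in control and 0% in KO, H3K4me3 1161 and 8192 bp, and H3K27ac 0% and 100%. At chr1:75599301-75609701 H3K27me3 covered 86.8% and 6.95%, H3K4me3 2057 and 10401 bp, and H3K27ac 0% and 52.77%. At chr14:92294991-92304750 the same marks covered 75.53% and 28.92%, 4030 and 9760 bp, and 0% and 47.62%, and at chr6:85476948-85488198 they covered 54.65% and 0%, 4604 and 11251 bp, and 29.41% and 91.71%. The opposite order was seen in some control-only domains, which entered through the control list alone. H3K27me3 covered 2.21% in control and 45.03% in KO at chr15:27010722-27019718, where H3K4me3 covered 8997 and 4807 bp. It covered 0% and 26.0% at chr2:69239414-69248505, and 0% and 24.22% at chr13:93876671-93885018.

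H3K9me3 met or bordered many domains in control and few in KO. In control a peak touched 255 of 934 domains (27.3%, interval 24.5 to 30.2), and in KO 25 (2.68%, 1.82 to 3.92). Of the 255, 235 had no H3K9me3 in KO, and 5 domains had it in KO alone. For the broad peaks of each genotype's own list the shares touched were 26.2% and 3.27%. In 150 of the 255 (58.8%) the control peaks covered the first or the last base of the domain, the 11 completely covered domains among them. In 105 (41.2%) they lay inside only. They covered a median of 16.01% of the length of the 255. In KO 3 of the 25 were covered at an end and 22 inside only. The flanks also differed between genotypes. An H3K9me3 peak lay within 10 kb outside 475 domains in control (50.9%, interval 47.7 to 54.1) and 17 in KO (1.82%, 1.14 to 2.9). The flanks of narrow H3K4me3 peaks were not counted, so this difference cannot be called particular to broad domains. Narrow peaks themselves were touched by H3K9me3 in 9.24% in control and 2.35% in KO. The whole KO list did not have less H3K9me3 by length, since it held 53949 peaks with a median of 4423 bp over 623 Mb, against 102976 peaks with a median of 2303 bp over 344 Mb in control. The midpoint of a domain lay in H3K9me3 in 7.28% in control and 0.749% in KO, and that of a narrow H3K4me3 peak in 4.04% and 1.9%. The set includes domains chosen through the KO list alone, which bears on the control share. For the broad peaks of each genotype's own list the midpoint shares were 4.96% (interval 3.59 to 6.83) and 0.915%. At least 50% of the length was covered in 2.13% of control's own broad peaks, against 4.03% of its narrow peaks. All 3 classes of domains had the mark in control, namely 27.8% of the shared, 23.6% of the control-only and 29.1% of the KO-only domains, but by length it covered 5.88%, 6.62% and 13.1%. In KO it covered 0.644%, 0% and 0.61%.

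Domains with much control H3K9me3 were mostly broad in KO only. H3K9me3 covered at least 50% of 33 domains in control, of which 20 were broad in KO only, 8 in both and 5 in control only, and 30 of the 33 had none in KO. Of the 33, 13 lay on chromosome 19, as did 10 of the 11 that were covered completely. In 19 of the 33, H3K4me3 peaks also covered at least 50% of the domain in control, and stretches called for both marks took a median of 62.9% of the domain (26.7% to 100%). The shared domain at chr10:5133646-5151999 is among them, with H3K4me3 peaks of 18354 and 17432 bp and H3K9me3 over 91.03% in control and 17.51% in KO. The highest KO coverage was 53.33%, at chr3:104148943-104158902, where control had 47.58%. At chr11:65263249-65276760, a shared domain, H3K9me3 covered 48.96% in control and 36.84% in KO with H3K27ac over 100% in both.

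**Figure D3:**
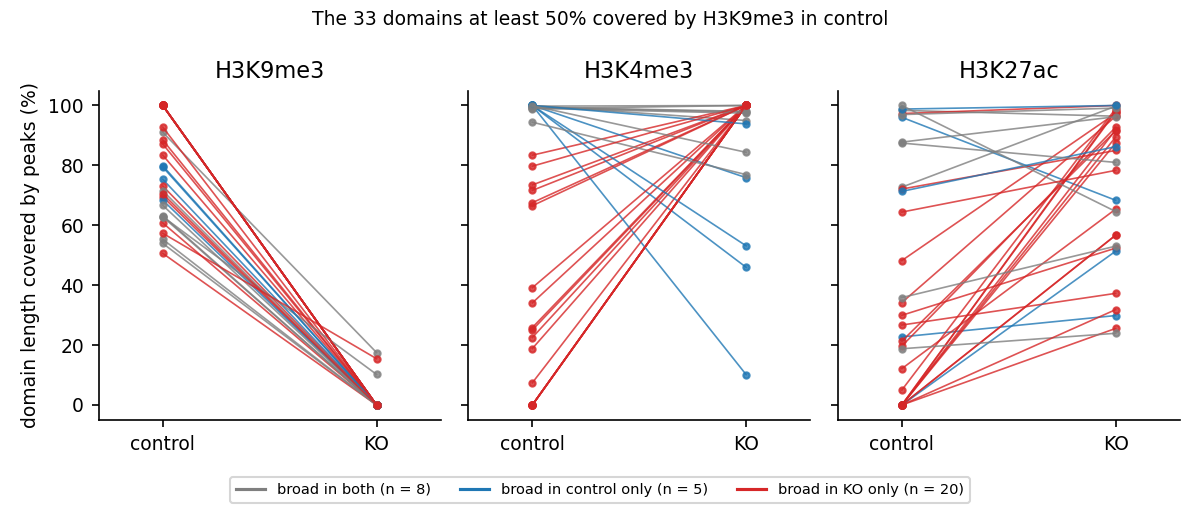
Percent of the domain's length covered by H3K9me3, H3K4me3 and H3K27ac peaks in control and KO for the 33 domains at least 50% covered by H3K9me3 in control (1 line per domain, coloured by where it is broad). H3K9me3 is at 0% in KO in 30 of the 33, and the lines of the 20 KO-only domains rise for H3K4me3, which the rule used.

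CTCF, the DNA-binding protein found at many loop anchors and TAD boundaries, touched 131 domains in control (14.0%) and 278 in KO (29.8%). It was present in both lists in 124 domains, in KO alone in 154 and in control alone in 7. Peaks in the whole CTCF list numbered 23903 in control and 34474 in KO, and the part of this difference in the counts was not tested. The share with CTCF was higher in KO in each class: 76 and 170 of the shared domains, 30 and 59 of the control-only domains, and 25 and 49 of the KO-only domains. A CTCF peak touched 9.28% of narrow H3K4me3 peaks in control and 12.2% in KO, but a wide region is touched more easily. The midpoint lay in a CTCF peak in 0.214% and 1.07% of domains, against 3.22% and 4.29% of narrow H3K4me3 peaks. By length CTCF was sparser in domains than in narrow H3K4me3 peaks, at 0.362% and 0.987% against 1.51% and 2.59%.

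Nearly all domains lay in chromatin with a positive Hi-C compartment score, a signed value per 100 kb bin that separates compartments by their contacts. The sources used here do not say which sign is the active compartment. The domain midpoints fell into 837 bins with a score, from 923 domains, and 11 domains had none. The median score over these bins was 0.768 and 0.761 in the control replicates and 0.771 and 0.766 in the KO replicates, against 0.151, 0.142, 0.142 and 0.139 over all bins. Of the 837 bins, 766 (91.5%) were positive in all 4 replicates, where all bins gave 48.4%. Bins with narrow H3K4me3 peaks gave 65.1% for the control list and 61.5% for the KO list. The score was positive in both control and negative in both KO replicates in 19 of the 837 bins, and the reverse in 16. Over all 26503 bins these counts were 1318 and 1328, a larger share each way. For the 223 bins of KO-only domains they were 3 and 11, and the share of the latter was close to that of all bins.

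Compartment scores were compared between genotypes with limma over all 26503 bins, and 58.8% of them were called at an adjusted p under 0.05, 21.5% higher and 37.3% lower in KO. Of the domain bins, 366 (43.7%) were called, 154 higher (18.4%) and 212 lower (25.3%), so the share called was below that of all bins. Bins with narrow H3K4me3 peaks lay between, with 55.9% called for the control list and 57.4% for the KO list. Narrow peaks of the KO list had 26.1% of bins higher and 31.3% lower. For the control list, 3584 of 17876 bins were higher and 6415 lower. The classes differed in the balance of directions. KO-only domains had 29.1% of 223 bins higher and 18.4% lower, control-only domains 9.7% of 165 higher and 28.5% lower, and shared domains 16.5% of 490 higher and 27.6% lower. Neither the difference between classes nor that from narrow peaks was tested. With the score columns scaled to equal SD, 13.3% of domain bins were higher and 32.4% lower (all bins 20.3% and 38.5%), and KO-only domains had 24.7% higher and 25.1% lower. Without KO replicate 1 the share of domain bins called was 30.0% (all bins 47.7%), and without KO replicate 2 it was 28.8% (47.6%). The median score of the KO-only bins was 0.721 and 0.708 in control and 0.763 and 0.77 in KO, and that of the control-only bins was 0.768 and 0.761 in control and 0.753 and 0.742 in KO. Single bins of either class moved in both directions around these medians. Across domains the KO minus control difference in score and that in the percent covered by H3K4me3 had a Pearson r of 0.429 (n = 923 domains, which share 4 libraries).

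**Figure D4:**
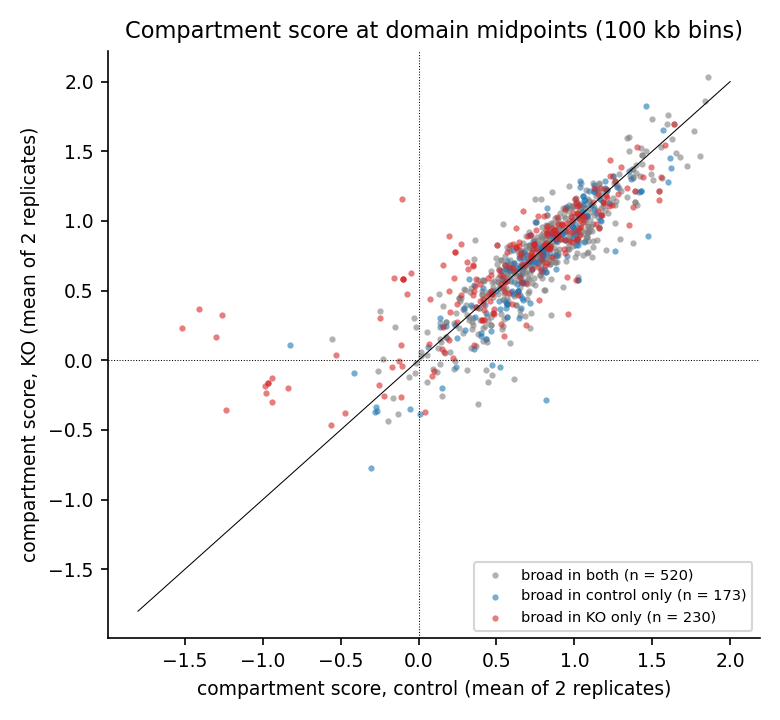
Compartment score of the 100 kb bin at each domain's midpoint, as the mean of 2 replicates in control (x axis) and KO (y axis), for 923 domains coloured by where they are broad, with a solid line of equal score. Most points lie in the upper right quadrant along the line. A group of KO-only domains (red) at control scores near -1 and below lies above the line.

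The 5 largest rises in compartment score were all at KO-only domains. At chr19:53435537-53452068 the score was -1.44 and -1.37 in the control replicates and 0.38 and 0.35 in the KO replicates, a difference of 1.77 (SE 0.044, limma adjusted p 3.6e-09). The next were chr19:38080227-38088289, with a difference of 1.75, chr19:52429117-52437363 with 1.58, chr19:38140879-38151062 with 1.46 and chr5:178252459-178262889 with 1.26, and in all 5 H3K9me3 covered 100% of the domain in control and 0% in KO. Among the domains at least 50% covered by H3K9me3 in control, 13 lay on chromosome 19 and 20 elsewhere. On chromosome 19, 12 had a score, in 11 bins, and all 12 were higher in KO, by 0.64 to 1.77. Elsewhere 19 had a score, of which 6 were higher, 7 lower and 6 not called, with a median difference of 0.011. The largest fall was at chr7:105916955-105927103, a control-only domain, from 0.73 and 0.91 in control to -0.31 and -0.26 in KO, a difference of -1.11 (SE 0.058, limma adjusted p 1.4e-07). H3K4me3 covered 10149 and 4346 bp of it and H3K27ac 95.39% and 26.52%. Falls were also found at domains that were not broad in control only: the score fell by 0.75 at chr4:83287977-83297877 and by 0.70 at chr3:25464912-25476604, both shared domains, and by 0.63 at chr3:39188139-39196704, a KO-only domain.

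Topologically associating domains (TADs) are blocks of chromatin with more contacts inside than across their borders. A TAD boundary lay within 20 kb of the midpoint of 18.2% of the broad domains in control (interval 15.9 to 20.8) and 18.3% in KO (16.0 to 20.9), against 15.8% and 14.9% of narrow H3K4me3 peaks. The shares were 20.7% and 21.8% for control-only, 14.1% and 14.5% for KO-only and 19.2% and 18.8% for shared domains. Of the 934, 854 (91.4%) lay inside a single TAD in control and 844 (90.4%) in KO, where narrow peaks gave 96.4% and 96.3%. A wider region crosses a border more easily, and this comparison does not allow for width. The median distance to a boundary was 74.1 and 72.4 kb.

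The RNA of the enzymes that write, erase and read H3K4me3, and of those that acetylate or methylate H3K27, was then compared. In RNA-seq, 62.8% of 17767 tested genes had an adjusted p under 0.05 in edgeR's quasi-likelihood test, 32.8% higher and 30.0% lower in KO. Of the 49 genes on the list 48 were tested, and 21 were higher, 14 lower and 13 not called. PRDM9, the meiotic methyltransferase, had 0 counts in control, at most 11 in a KO library and was not tested. The list's median log2 fold change was 0.10, and that of all genes 0.004. Under upper quartile scaling the list instead had 13 genes higher and 15 lower, so which direction prevailed changed with the scaling.

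Among the writers, 4 of 7 tested were higher and 2 lower. SETD1B, a methyltransferase of the SETD1 complexes, had 19.1, 23.3 and 22.5 CPM in control and 34.9, 39.6 and 34.0 CPM in KO, which is 0.76 on the log2 scale (SE 0.073) with an edgeR adjusted p of 3.2e-09. All KO libraries lay above all control libraries. Of the 4 shared subunits, ASH2L was higher and the other 3 were lower. WDR5, which holds the complexes together, had 59.0, 58.8 and 64.6 CPM in control and 45.0, 50.2 and 50.9 CPM in KO, a log2 change of -0.32 (SE 0.055) with an edgeR adjusted p of 1.3e-05. Among 11 complex-specific subunits 2 were higher and 3 lower, including PAXIP1, a subunit of the KMT2C and KMT2D complexes, at -0.34.

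Of the 9 erasers and their partners 7 were higher, and KDM1A and KDM1B, which remove mono- and dimethylation, were lower. KDM5B, an H3K4me3 demethylase, had 63.3, 63.5 and 58.4 CPM in control and 80.7, 83.0 and 83.0 CPM in KO, a log2 fold change of 0.42, and KDM2B changed by 0.32. Under upper quartile scaling 4 erasers were called higher. The readers, proteins that bind H3K4me3, included the largest change of the list. ING4, a subunit of a histone acetyltransferase complex, had 11.3, 10.4 and 11.4 CPM in control and 19.6, 21.8 and 21.1 CPM in KO, or 0.92 on the log2 scale (SE 0.074) with an edgeR adjusted p of 1.6e-11. ING5, its close relative, changed in the other direction, by -0.36, and in all 5 of 11 readers were higher and 1 lower. The acetyltransferases EP300 and CREBBP were both higher, at 0.14 and 0.26, though only 1 of them was called under upper quartile scaling. Of the 4 PRC2 genes EZH2, EED and SUZ12 were lower, with EED at -0.39, and EZH1 was not called. Levels of these genes say nothing of protein.

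**Figure D5:**
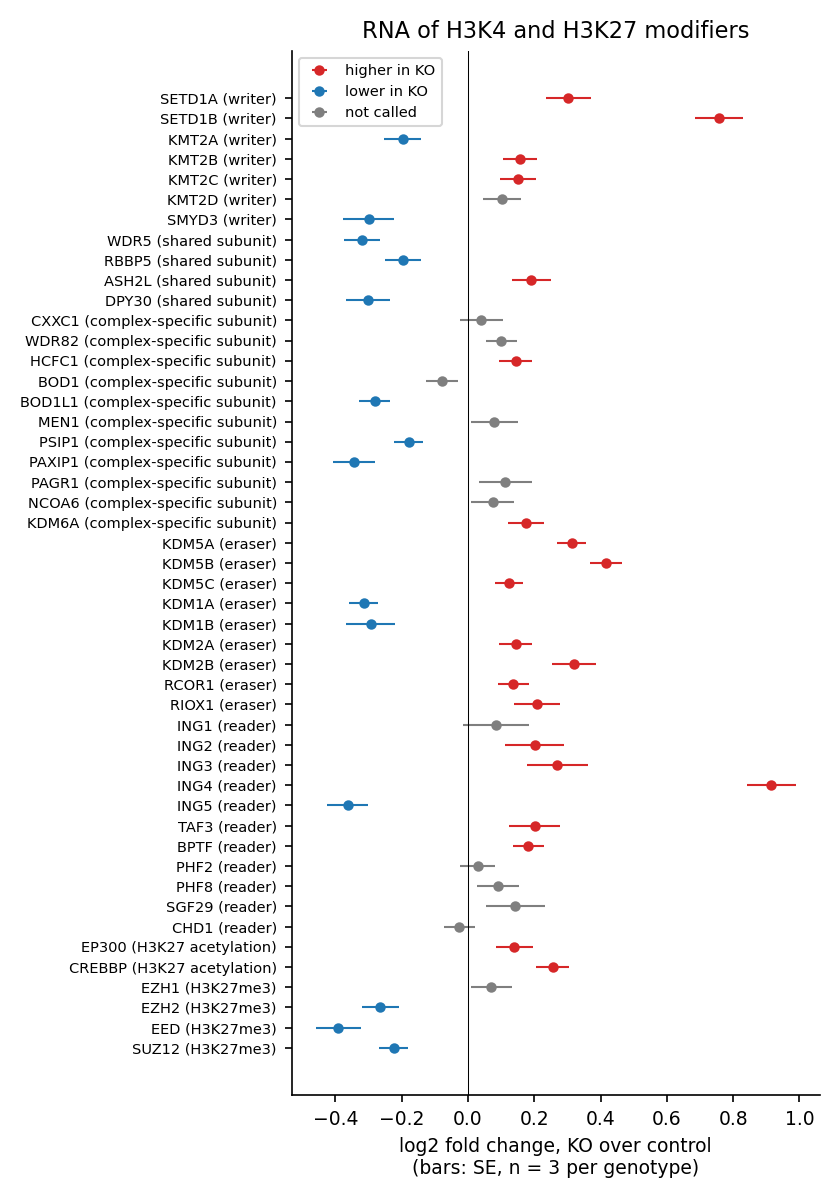
Log2 fold change (KO over control, x axis) of the 48 tested genes of H3K4 methylation and H3K27 modification, with bars for the standard error (n = 3 libraries per genotype). Red genes are higher and blue genes lower in KO at an edgeR adjusted p under 0.05, and grey genes are not called. Apart from ING4 at 0.92 and SETD1B at 0.76, the changes lie between -0.39 and 0.42.

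The genes that start in these domains, their expression and the DNA sequence of the domains were not analysed here, since the positions are on hg19 and the gene tables at hand are on another build.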

How the data were processed

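Domain members, gene lists and comparisons were chosen with earlier results of these data known. The submitters' processing notes name STAR 2.6.1c, edgeR 3.30.0, Bowtie2 2.2.3, SAMtools 1.5, Picard, MACS2 and hg19, with no settings; peak thresholds and pooling of libraries are not given in the sources used here. Per the labels' protocols, chromatin was cut with MNase for histone marks and sonicated for CTCF, RNA libraries were stranded total RNA, and Hi-C used DpnII. The deposited peak and TAD lists hold positions only, 1 list per genotype. The KO libraries of H3K4me3 carry an antibody label with a missing digit and were placed by title and description. The deposited compartment table holds a signed score per 100 kb bin and replicate; how the authors made and scaled the score is not given in the sources used here. The deposited gene table holds whole-number counts, as the authors made them.

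From these, peaks were merged and overlapped (at least 1 bp) with pandas 2.3.3 and numpy 2.4.6 in Python 3.11.15. Positions are printed from 1. Compartment scores were fitted with limma 3.58.1 and counts with edgeR 4.0.16 in R 4.3.3 (quasi-likelihood F-test, robust, after filterByExpr and TMM scaling). Genotype was the single term, and p-values were adjusted by Benjamini-Hochberg, with a threshold of 0.05, over all bins or genes. Both fits were tested on simulated data. Library totals ran from 18065062 to 48364919 counts, and 93.8% of 62486 gene IDs had a symbol. The labels do not say that replicates were separate cultures, so p-values measure the spread between these libraries, which may be technical; with 2 Hi-C libraries per genotype, few degrees of freedom lie behind the limma fit. No pair of RNA libraries agreed within sampling noise.

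Regions named were the 10 widest, the 5 largest differences in covered H3K4me3 each way among domains broad in 1 genotype, the 9 without a control peak and the 5 largest compartment changes each way. Genes named were SETDB1 and the 4 largest changes of the list each way; EP300, CREBBP and members named for their role, and the domains named for H3K27ac, H3K27me3, H3K9me3 or clustering, were chosen after their values were seen. Alternatives were other widths, merging, overlap rules, scalings (DESeq2 1.42.0 among them), a replicate block and leaving out replicates. Input libraries were not used here.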

Additional observations from a re-analysis of the deposited data

How the results depend on the processing

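The number of domains follows from the width chosen. At 6000 bp there were 2102 (1223 broad in both, 357 in control only, 522 in KO only), and at 10000 bp 468 (273, 86 and 109). KO-only domains outnumbered control-only domains at each width, but not with the 705 widest peaks of each list (190 control only, 191 KO only). Merging peaks within 1 kb first gave 1409 domains, 809 of them shared and 365 KO only. Calling a domain broad by its total covered length left 113 control only. H3K9me3 touched 21.3% in control and 1.43% in KO at 6000 bp, and 33.8% and 4.06% at 10000 bp. Asking for 50% of the length to be covered gave, in control and KO, 81.2% and 89.1% for H3K27ac, 0.428% and 0% for H3K27me3, 3.53% and 0.107% for H3K9me3, and 0% in both for CTCF. Asking for the midpoint gave 77.9% and 82.4%, 0.642% in both, 7.28% and 0.749%, and 0.214% and 1.07%. A TAD boundary lay within 10 kb of 10.1% and 10.9%, and within 40 kb of 30.8% and 31.0%. With the compartment columns scaled to equal SD, 13.3% of domain bins were higher and 32.4% lower, where all bins gave 20.3% and 38.5%. Leaving out a Hi-C library in turn gave 28.8% to 43.8% of domain bins called, 12.7% to 19.4% higher and 15.8% to 24.5% lower; without KO replicate 1 the share called was 30.0% (all bins 47.7%) and without KO replicate 2 it was 28.8% (47.6%). A lone library was then taken to vary like the other group. Upper quartile scaling gave 13 higher genes of the H3K4 and H3K27 list against 21, and leaving out an RNA library gave 14 to 20, the fewest without KO replicate 2. Of 179 values under alternatives for the main results, 134 stayed within 1.5 times the main value (counts) or within its 95% Wilson interval (shares), and the log2 fold changes of the 9 named genes kept direction and call in 108 of 108. Replicate numbers were taken to pair samples only if every pair's deviations correlated over 0.1. The correlation was -0.0026 in Hi-C, and 0.21, 0.13 and 0.071 in RNA-seq, where 5 of 6 libraries correlated best with their own number, a hint of pairing that falls short of that rule. A replicate block gave 46.0% of domain bins called (19.7% higher, 26.3% lower), 23 higher and 14 lower genes on the list, and 11655 genes called in all. Analyses of genes that start in domains were not run. Depth behind each peak is unknown, since the lists hold positions only, so a missing peak is not a missing mark.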
